A study of Mus musculus with 24 samples.

Results

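Messenger RNA levels of T cells activated for 24 h with an agonist of Toll-like receptor 2 (TLR2) were compared with those of T cells activated for 24 h with peptide alone. The 8 libraries were chosen by their labels, 4 of the group TLR2 at 24 h and 4 of the group OVA at 24 h, out of 24 libraries in the series, and all 14560 genes that passed the filter on low counts were described. The other 16 libraries (TLR7 at 24 h, and OVA, TLR2 and TLR7 at 72 h) entered the normalization and the shared estimate of spread. All groups came from cultured spleen cells of OT-1 mice, which are transgenic for a T cell receptor that recognises an ovalbumin peptide on CD8 T cells. Both groups received peptide at 2 µg/mL, and in the TLR2 group the agonist was added 1 h earlier. Of the agonists listed in the labels, Pam3CSK4 (300 ng/mL), a synthetic lipopeptide, acts on TLR2, but the labels do not tie it to the sequenced libraries. The agonist was added to whole splenocyte cultures, which also hold B cells and myeloid cells, and T cells were isolated at the end by negative selection with magnetic beads. The labels call the cells CD8+ T cells. Whether the replicates were separate mice, separate cultures or repeats of the same one is not in the labels, and p-values therefore reflect only how far these samples differ, a spread that may be technical.

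TLR2 pairs with TLR1 or TLR6 to bind bacterial lipopeptides and signals through the adaptor MyD88 to NF-kB and MAP kinases. Macrophages, dendritic cells and neutrophils carry it at high levels, and activated T cells carry it too, where its ligands are known to act as a costimulus alongside the T cell receptor (TCR). TLR agonists also act on antigen-presenting cells, which in turn supply costimulatory ligands and cytokines to T cells.

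The 4 libraries of the peptide-alone group fell apart before any comparison. Principal component 1 of the 24 libraries held 60.2% of the variance in log2 CPM (CPM is a gene's count scaled to the size and composition of its library). It separated 24 h from 72 h apart from 8 libraries in the middle. On it OVA replicates 2 and 4 lay at 94.3 and 91.1 and the TLR2 replicates between 85.2 and 99.1. OVA replicates 1 and 3 lay at -20.5 and -12.5, among 8 libraries of 4 groups that fell between the times. Whether libraries were exchanged between times or groups cannot be told from the labels. Each was kept in the group its label gives, and every difference below depends on those labels. The median gene varied more among the OVA libraries (SD 0.383 on the log2 CPM scale) than among the TLR2 libraries (SD 0.256), and 10202 genes (70.1%) had the larger SD in OVA. OVA replicates 1 and 3 were the 2 highest of the 8 libraries in 3778 genes (25.9%) and the 2 lowest in 3676 genes (25.2%). Totals ran from 11.1 to 25.5 M (mega) counts, with replicate 4 of each group shallow at 11.1 and 11.6 M. TLR2 replicate 2 differed from the other TLR2 libraries in its share of mitochondrial counts, 2.58% against 1.63 to 1.76%, and of ribosomal protein counts, 7.50% against 9.34 to 10.0%. Log2 fold changes are given below with and without OVA replicates 1 and 3 where they bear on the value.

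**Figure D1:**
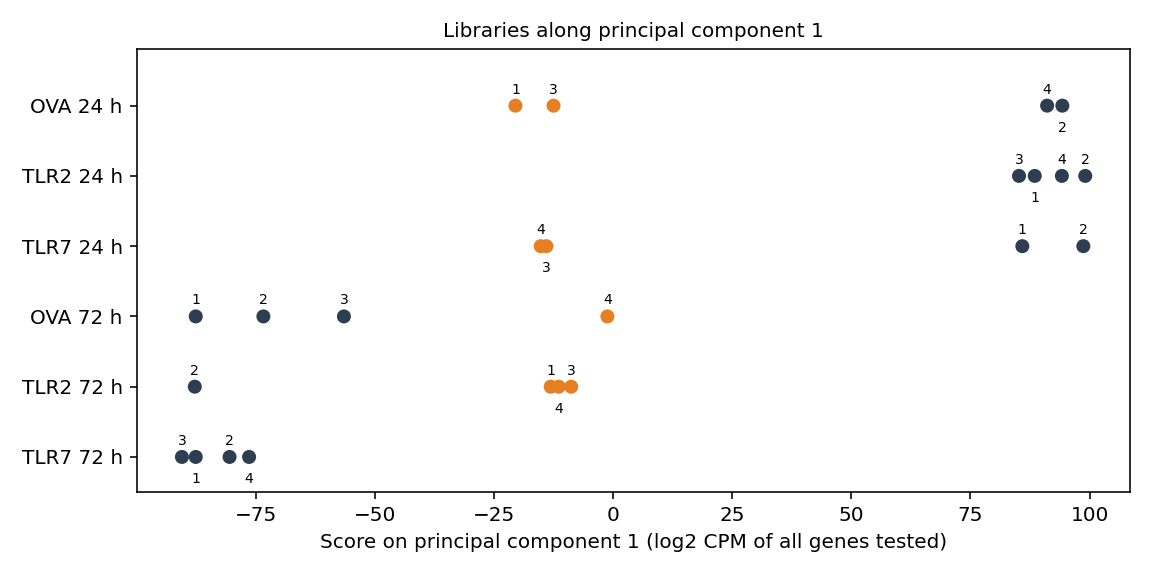
Score of each of the 24 libraries on principal component 1 of log2 CPM, 1 row per group, with the replicate number beside each point and the 8 libraries that lie between the times in orange. OVA 24 h replicates 1 and 3 lie at -20.5 and -12.5, while the other OVA and all TLR2 libraries at 24 h lie between 85.2 and 99.1.

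In edgeR's quasi-likelihood test 0 of 14560 genes (0%) had an adjusted p under 0.05, and the smallest adjusted p was 0.176. At an unadjusted p under 0.05 the edgeR test gave 420 genes higher (2.88%) and 1791 lower (12.3%) with the TLR2 agonist. DESeq2 on the same 24 libraries called 345 genes, 19 higher (0.13%) and 326 lower (2.24%). All 19 of the higher calls had every TLR2 library above every OVA library. Of the 326 lower calls, 321 had OVA replicates 1 and 3 as the 2 highest libraries, and 79 changed sign when those 2 were left out. Leaving out OVA replicate 2 alone gave 546 edgeR calls of 14770 genes tested in that fit, 12 higher and 534 lower. Of these calls, 542 were among the 14560 genes. In 518 of the 542, OVA replicates 1 and 3 were the 2 highest of the 8 libraries, and 164 changed sign when those 2 were left out. Without OVA replicates 1 and 3, edgeR called 0 genes and DESeq2 called 1, Il21, which encodes a cytokine of activated T cells.

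Regardless of any test, 439 genes (3.02%) stood higher in every TLR2 library than in every OVA library, and 454 genes (3.12%) stood lower in every one. TLR2 replicate 2 was the highest of the 4 TLR2 libraries in 309 of the 439 (70.4%) and the lowest in 241 of the 454 (53.1%). Counts of list members higher or lower in every TLR2 library are to be read beside 3.02% and 3.12%. Counts of list members called by DESeq2 are to be read beside 0.13% higher and 2.24% lower. These counts were not tested. In the genes below, values of the 4 libraries are in CPM and in the order of replicates 1 to 4. Log2 fold changes are TLR2 minus OVA from the edgeR fit on all 24 libraries, with the standard error (SE), and none of the genes named passed that test.

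**Figure D2:**
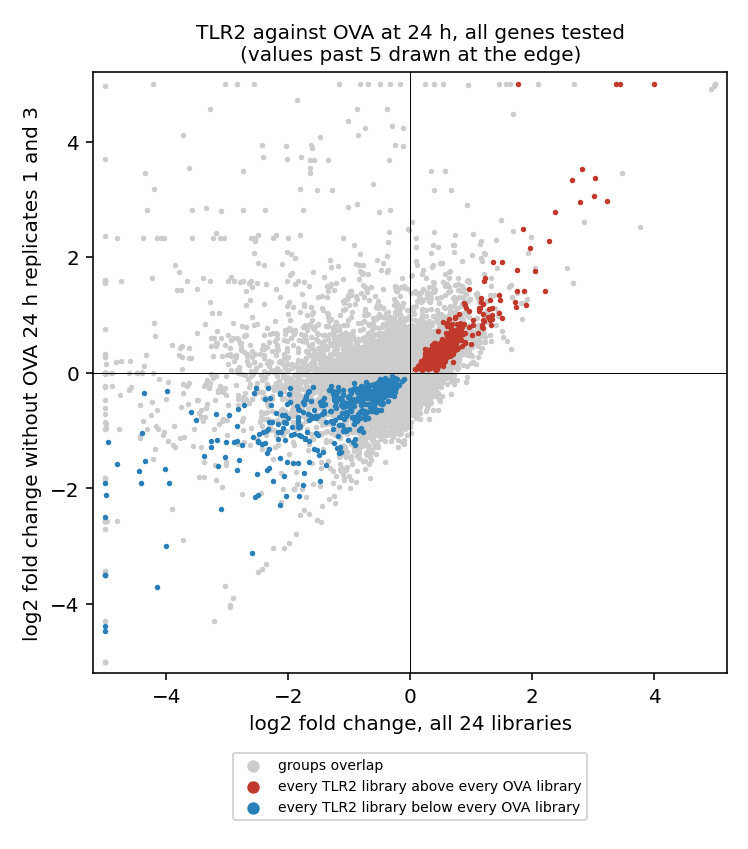
Each point is a gene tested, with the log2 fold change of TLR2 against OVA at 24 h from all 24 libraries on the x axis and from the fit without OVA replicates 1 and 3 on the y axis; values past 5 are drawn at the edge. The 439 genes higher in every TLR2 library are red, the 454 lower in every TLR2 library are blue, and many grey genes with a value below 0 on the x axis lie at or above 0 on the y axis.

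The transcript of the receptor itself did not separate the groups. Tlr2 had 12 to 60 counts per library and stood at 2.32, 2.36, 1.898 and 1.06 CPM under peptide alone and 2.297, 2.64, 1.59 and 2.15 CPM with the agonist, with a log2 fold change of 0.17 (SE 0.39). The ranges of the groups overlapped for Tlr2, and also for its partners Tlr1 (log2 fold change -0.01, SE 0.22) and Tlr6 (-0.67, SE 0.42) and for Tlr7 (-0.15, SE 0.505). Without OVA replicates 1 and 3 these values were 0.31 for Tlr2, -0.18 for Tlr1, -0.04 for Tlr6 and -0.49 for Tlr7. Of 33 genes tested in the list of the TLR pathway, 2 were higher in every TLR2 library and 0 were lower in every one. Over all genes tested the shares were 3.02% and 3.12%. The list's median log2 fold change was -0.03, beside -0.01 over all genes tested. The 2 higher genes were Myd88, the adaptor itself, and Cd36, a scavenger receptor that can present lipopeptides to TLR2. Myd88 stood at 65.2, 77.3, 58.2 and 68.7 CPM under peptide alone and 86.7, 89.96, 92.7 and 99.9 CPM with the agonist (log2 fold change 0.45, SE 0.19, edgeR adjusted p 0.27). OVA replicates 1 and 3 were the 2 lowest libraries, and the value was 0.33 without them. The lowest TLR2 library lay at 86.7 CPM against 77.3 CPM in the highest OVA library. Cd36 stood at 1.61, 1.999, 1.07 and 0.5303 CPM under peptide alone and 3.13, 5.37, 2.32 and 7.25 CPM with the agonist (log2 fold change 1.75, SE 0.61; edgeR adjusted p 0.217).

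The largest log2 fold change upward among genes that had no overlap and a mean of at least 5 CPM was that of Il21, a T cell cytokine gene. Of 27 cytokine genes tested, 7 were higher and 2 were lower in every TLR2 library (Fasl and Ltb), against 3.02% and 3.12% of all genes. DESeq2 called 4 higher and 0 lower, against 0.13% and 2.24% of all genes. Of the 27, 17 had a value above 0, and 15 without OVA replicates 1 and 3. The list's median log2 fold change was 0.30, and 0.30 without OVA replicates 1 and 3, beside -0.01 over all genes in both. Promoters of 3 of the 7 are shown here as examples that hold NFAT core letters, since cytokine promoters are a classic place of NFAT binding, the factor that the TCR's calcium signal brings to the nucleus. The windows are the 250 bases before each gene's start in RefSeq on GRCm38.p6, 5′ to 3′ on the gene's strand: Il21 at chr3:37232637-37232886 (minus), Il2 at chr3:37125955-37126204 (minus) and Il17f at chr1:20784271-20784520 (minus). Capitals mark the NFAT core letters TTTCCA or their reverse complement TGGAAA.
Il21: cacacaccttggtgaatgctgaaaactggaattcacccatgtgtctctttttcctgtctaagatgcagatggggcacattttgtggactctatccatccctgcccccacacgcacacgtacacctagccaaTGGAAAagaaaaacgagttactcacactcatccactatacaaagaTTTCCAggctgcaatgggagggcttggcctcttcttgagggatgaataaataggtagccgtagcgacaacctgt
Il2: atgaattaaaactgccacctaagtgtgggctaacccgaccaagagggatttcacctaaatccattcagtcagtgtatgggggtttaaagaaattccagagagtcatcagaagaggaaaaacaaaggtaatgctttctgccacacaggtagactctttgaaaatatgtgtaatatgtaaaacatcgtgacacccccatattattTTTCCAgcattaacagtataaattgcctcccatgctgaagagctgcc
Il17f: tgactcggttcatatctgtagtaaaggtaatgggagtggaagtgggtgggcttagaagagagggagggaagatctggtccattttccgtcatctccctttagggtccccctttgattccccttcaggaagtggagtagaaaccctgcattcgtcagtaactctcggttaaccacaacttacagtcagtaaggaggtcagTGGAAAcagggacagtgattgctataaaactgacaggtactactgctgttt
The letters occurred at -119 and -74 from the start of Il21, at -47 in Il2 and at -51 in Il17f. The windows of Il3 and Il22 held them too, and that of Ifng held 0 matches, which says only that these letters are not in that window. They occurred in 11 of the 22 cytokine promoters with a RefSeq entry (50.0%) and in 50 of 325 promoters of the genes higher in every TLR2 library (15.4%). The shares were 1723 of 9743 promoters of the genes tested (17.7%) and 5655 of all 27025 promoters (20.9%). These letters can overlap those of an NF-kB site (GGG, any 2 bases, TTTCC), which 3 of the 22 held. A match is a stretch of letters, not a measured binding site.

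Il21 encodes a cytokine that supports B cells and CD8 T cells. It lies on chr3:37222759-37232636 (minus strand, GRCm38) and stood at 2.83, 0.318, 6.39 and 0.177 CPM under peptide alone and 14.5, 84.4, 25.9 and 39.02 CPM with the agonist. The 2 lowest libraries were OVA replicates 2 and 4, with 7 and 2 counts, and even OVA replicate 3 lay below the lowest TLR2 library. The log2 fold change was 4.005 (SE 1.11; edgeR adjusted p 0.176, and 0.00554 to 1 over the alternatives), and 7.23 without OVA replicates 1 and 3, a value that rests on the 7 and 2 counts of the other 2 OVA libraries and is imprecise. TLR2 replicate 2 held the highest value, and without it the log2 fold change was 3.37.

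Interferon-gamma is the main effector cytokine of CD8 T cells. Its gene Ifng (chr10:118441046-118445892, plus strand) stood at 186, 121, 44.8 and 58.1 CPM under peptide alone and 298, 626, 287 and 394 CPM with the agonist. Its OVA values did not follow the split of that group, since replicates 1 and 2 were the higher ones and replicates 3 and 4 the lower. The means were 102 ± 64.7 CPM (SD, n = 4) in OVA and 401 ± 157 CPM (SD, n = 4) in TLR2, and the groups did not overlap. The log2 fold change was 1.97 (SE 0.57; edgeR adjusted p 0.176, and 0.0206 to 1 over the alternatives) and 2.16 without OVA replicates 1 and 3.

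Il2 and Il3, a T cell growth factor and a growth factor of blood cell precursors, showed an OVA split in the other direction. Il2 stood at 15.7, 46.2, 13.2 and 33.3 CPM under peptide alone and 96.3, 77.1, 46.5 and 86.9 CPM with the agonist. OVA replicates 1 and 3 were the 2 lowest of the 8 libraries, and OVA replicate 2 (46.2 CPM) lay just under TLR2 replicate 3 (46.5 CPM), the closest pair across the groups. The log2 fold change of Il2 was 1.503 (SE 1.199; edgeR adjusted p 0.522), and 0.94 without OVA replicates 1 and 3. Il3 stood at 5.55, 14.8, 3.46 and 6.28 CPM under peptide alone and 24.5, 33.1, 17.8 and 24.2 CPM with the agonist (1.72, SE 0.73, and 1.23 without those 2). Cd40lg, the ligand with which T cells license antigen-presenting cells, stood at 7.201, 9.22, 4.25 and 7.95 CPM under peptide alone and 15.9, 21.8, 10.6 and 17.4 CPM with the agonist (1.197, SE 0.49, and 0.92 without those 2). In both genes every TLR2 library lay above every OVA library.

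Il17f and Il22, cytokines best known from Th17 and Tc17 cells, were near the detection floor under peptide alone. Il17f stood at 0.433, 0.318, 0.536 and 0.0884 CPM under peptide alone and 1.25, 2.51, 1.95 and 3.67 CPM with the agonist, from 1 to 13 counts per OVA library and 30 to 57 counts per TLR2 library. A count of 3 corresponds to 0.136 CPM in OVA replicate 2 and to 0.265 CPM in the shallow OVA replicate 4, so the lowest Il17f value is at the level of single reads. Its log2 fold change was 2.66 (SE 0.59), and 3.34 without OVA replicates 1 and 3. Il22 stood at 0.315, 0.182, 0.330 and 0.265 CPM under peptide alone and 1.71, 3.26, 1.18 and 3.04 CPM with the agonist, with 3 to 8 counts per OVA library and 29 to 74 counts per TLR2 library, and its log2 fold change was 3.03 (SE 0.77) and 3.36 without those 2. The low levels of both genes limit how precisely these ratios are known.

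**Figure D3:**
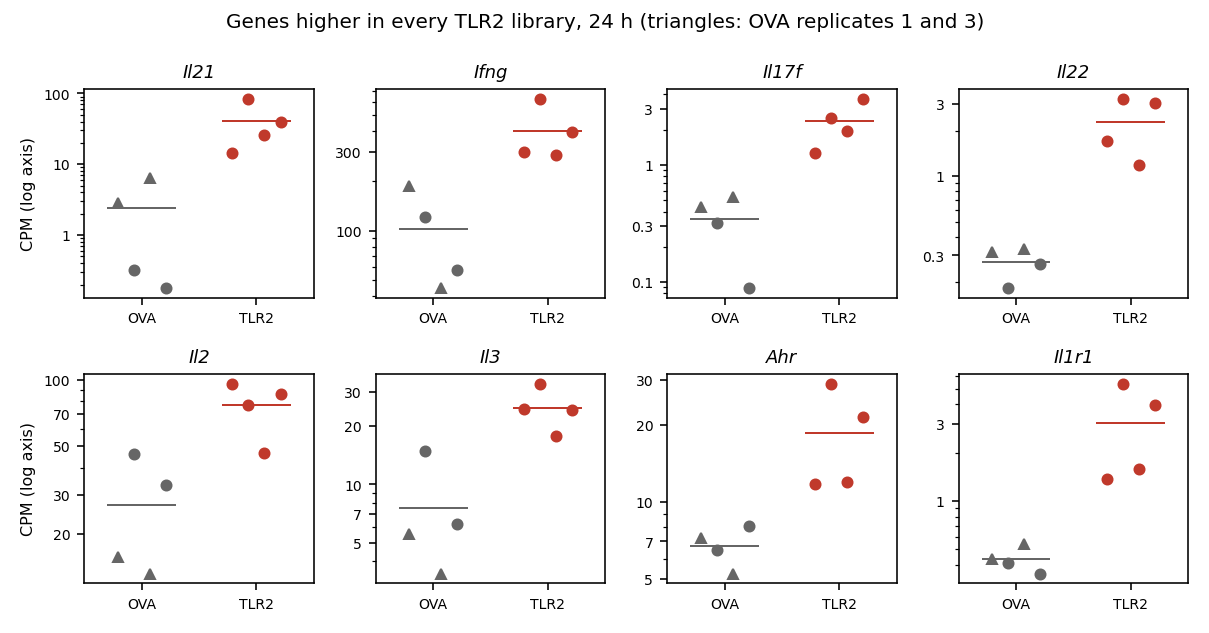
CPM on a log axis of 8 genes in the 4 OVA and 4 TLR2 libraries at 24 h, with a line at each group's mean and triangles for OVA replicates 1 and 3. In all 8 every TLR2 library lies above every OVA library, and the triangles are among the higher OVA points for Il21 and the lowest for Il2.

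Of 33 cytokine receptor and signalling genes tested, 2 were higher (Il1r1 and Pim2) and 3 lower (Tgfbr2, Il10rb and Il9r) in every TLR2 library, against 3.02% and 3.12% of all genes. Of the 33, 10 had a value above 0, and the median log2 fold change was -0.21, and 0.13 without OVA replicates 1 and 3. Il1r1, the signalling receptor for IL-1, stood at 0.433, 0.409, 0.536 and 0.353 CPM under peptide alone and 1.38, 5.37, 1.59 and 3.94 CPM with the agonist (log2 fold change 2.78, SE 0.600, and 2.96 without OVA replicates 1 and 3). All 4 OVA libraries lay close together, below the lowest TLR2 library at 1.38 CPM. Of 33 effector and exhaustion transcription factor genes, 4 were higher (Ahr, Batf, Tbx21 and Stat5a) and 0 lower in every TLR2 library, against 3.02% and 3.12% of all genes. The list median was 0.14. That median was 0.35 without OVA replicates 1 and 3 and -0.02 without TLR2 replicate 2. Ahr, the aryl hydrocarbon receptor and a known regulator of Il22, stood at 7.201, 6.498, 5.24 and 8.04 CPM under peptide alone and 11.8, 29.1, 11.9 and 21.6 CPM with the agonist (1.46, SE 0.400, and 1.34 without those 2; edgeR adjusted p 0.176, and 0.0191 to 1 over the alternatives). Batf, an AP-1 family factor of activated T cells, stood at 30.2, 28.8, 34.6 and 19.2 CPM under peptide alone and 38.97, 44.5, 47.6 and 58.1 CPM with the agonist (0.74, SE 0.26, and 0.97 without those 2). The OVA libraries were close together for Ahr and further apart for Batf, with the TLR2 libraries all above them in both. For Batf the gap was narrow, from 34.6 to 38.97 CPM. Tbx21, which encodes T-bet, the factor known for driving Ifng, was measured at 44.1, 59.3, 48.1 and 36.9 CPM under peptide alone and 76.1, 74.1, 67.2 and 74.7 CPM with the agonist.

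Other regulators differed less cleanly. Satb1, a chromatin organizer of T cells, stood at 469, 214, 535 and 207 CPM under peptide alone and 421, 956, 406 and 682 CPM with the agonist, so that OVA replicates 1 and 3 lay among the TLR2 libraries and OVA replicates 2 and 4 below all of them. Its log2 fold change was 0.79 (SE 0.33), 1.54 without OVA replicates 1 and 3 and 0.499 without TLR2 replicate 2. Batf3 showed the converse at 26.96, 1.04, 88.03 and 0.353 CPM under peptide alone and 1.71, 2.11, 2.52 and 1.88 CPM with the agonist: -3.82 (SE 1.18) became 1.43 without those 2. Zeb2, a factor of terminal effector cells, stood at 17.4, 10.6, 15.2 and 17.4 CPM under peptide alone and 17.5, 31.9, 17.2 and 23.6 CPM with the agonist (0.57, SE 0.21, and 0.36 without TLR2 replicate 2) with OVA replicates 1 and 4 at the level of the lowest TLR2 libraries. Among early TCR response genes, Nr4a2 stood at 53.5, 68.3, 45.5 and 81.9 CPM under peptide alone and 77.8, 142, 87.3 and 114 CPM with the agonist (0.76, SE 0.31, and 0.47 without OVA replicates 1 and 3). Of the 33 genes of that list, 1 was higher in every TLR2 library, against 3.02% of all genes. The list's median log2 fold change was 0.10 both with and without those 2, and 0.03 without TLR2 replicate 2.

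NF-kB target genes as a list stood at a median log2 fold change of 0.04, and -0.04 without OVA replicates 1 and 3. Of the 31 tested, 2 were higher in every TLR2 library (Nfkbia and Birc3, inhibitors of NF-kB and of cell death) and 0 lower. Over all genes tested the shares were 3.02% and 3.12%. Nfkbiz, an atypical NF-kB inhibitor protein known to be induced by TLR and IL-1 signals, stood at 51.2, 29.8, 31.1 and 33.2 CPM under peptide alone and 52.6, 79.3, 42.2 and 76.9 CPM with the agonist (log2 fold change 0.79, SE 0.27). Only OVA replicate 1 overlapped the TLR2 range in this gene, and without OVA replicates 1 and 3 the value was 0.98. Traf1, an adaptor of TNF receptors, stood at 364, 143, 351 and 129.9 CPM under peptide alone and 149.9, 111, 130.3 and 140.0 CPM with the agonist (-0.89, SE 0.35, and -0.04 without those 2). Ebi3, a subunit of IL-27 and IL-35, stood at 8.89, 2.32, 10.3 and 1.15 CPM under peptide alone and 1.25, 0.968, 1.18 and 0.716 CPM with the agonist (-2.44, SE 0.66, and -0.76 without those 2). In both genes OVA replicates 1 and 3 were the 2 highest libraries, and for Ebi3 OVA replicate 2 also lay above the TLR2 range.

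Of the other genes with the largest differences upward and no overlap, several are better known from B cells or myeloid cells. Fcrl5, an Fc receptor-like protein of B cells, stood at 0.394, 2.91, 0.371 and 1.33 CPM under peptide alone and 3.88, 8.802, 3.83 and 6.53 CPM with the agonist (log2 fold change 2.21, SE 0.85, and 1.41 without OVA replicates 1 and 3). Fcgr2b, the inhibitory IgG receptor, which activated CD8 T cells can also carry, stood at 2.28, 4.998, 1.81 and 3.54 CPM under peptide alone and 7.81, 19.1, 7.57 and 11.5 CPM with the agonist (1.87, SE 0.78, and 1.41 without those 2). Lmo2, a transcriptional adaptor of blood cell precursors and B cells, stood at 2.48, 4.63, 1.57 and 2.298 CPM under peptide alone and 5.096, 9.55, 5.95 and 7.34 CPM with the agonist (1.34, SE 0.49, and 0.99 without those 2). OVA replicates 1 and 3 were the 2 lowest libraries for Fcrl5 and Fcgr2b. The summed level of 20 B cell markers was 632, 1055, 474 and 849 CPM in OVA against 744, 691, 773 and 691 CPM in TLR2, with overlap. Of these 20 markers, 12 had a value below 0 and 8 above. Their median log2 fold change was -0.19, and -0.71 without OVA replicates 1 and 3. The medians of the macrophage and dendritic cell lists were -0.27 and -0.35. The part of B cells and myeloid cells in the 3 genes was not tested.

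Ptpn4, a protein tyrosine phosphatase that acts on TCR signalling, stood at 28.1, 22.5, 28.4 and 32.5 CPM under peptide alone and 39.7, 116, 37.8 and 50.5 CPM with the agonist (log2 fold change 1.13, SE 0.37), and at 0.62 without TLR2 replicate 2, the 1 library far above the rest. Kbtbd8, an adaptor of a ubiquitin ligase, stood at 6.57, 13.1, 8.498 and 12.6 CPM under peptide alone and 20.8, 28.6, 14.2 and 18.7 CPM with the agonist (1.01, SE 0.55, and 0.66 without OVA replicates 1 and 3). Casz1, a zinc finger factor, stood at 4.49, 2.27, 4.37 and 2.65 CPM under peptide alone and 6.06, 7.13, 4.89 and 9.13 CPM with the agonist (0.96, SE 0.48, and 1.46 without those 2). The gap between the groups was narrow for Kbtbd8, from 13.1 to 14.2 CPM, and for Casz1, from 4.49 to 4.89 CPM. Etv6, Timp1 and Itgb8 were among the higher DESeq2 calls and were chosen after their values were seen. Etv6, an ETS family repressor, stood at 124, 104, 119 and 92.1 CPM under peptide alone and 147, 226, 148 and 186 CPM with the agonist (0.69, SE 0.17, and 0.84 without OVA replicates 1 and 3), a modest difference at a high level. Timp1, an inhibitor of metalloproteinases (2.81, SE 0.71), and Itgb8, the integrin chain that activates TGF-beta (3.02, SE 0.79), lay at or under 0.371 CPM in every OVA library and between 0.668 and 3.43 CPM in the TLR2 libraries.

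The largest differences downward turned on the split of the OVA group. Genes of the integrated stress response were among them. ATF4 is the factor that is translated when amino acids run short or proteins misfold, and Trib3, Ddit3 and Ddit4 are classic targets. Of 33 genes tested in the list of ATF4 and amino acid genes, 28 had a value below 0 (against 50.9% of all genes). In every TLR2 library 3 were lower (against 3.12%), and DESeq2 called 11 lower (against 2.24%). OVA replicates 1 and 3 were the 2 highest libraries in 23 of the 33 (against 25.9%). The list's median of -0.59 became -0.03 without those 2 libraries. Trib3, a pseudokinase (chr2:152337422-152344032, minus strand), stood at 66.9, 2.23, 85.8 and 2.65 CPM under peptide alone and 2.09, 1.63, 2.08 and 1.79 CPM with the agonist. OVA replicates 1 and 3 lay far above all other libraries, while OVA replicates 2 and 4 lay just above the TLR2 range. Its log2 fold change was -4.37 (SE 1.05; edgeR adjusted p 0.176, and 0.00306 to 1 over the alternatives), and -0.35 without those 2.

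Ddit3, which encodes the stress factor CHOP, stood at 46.4, 5.09, 37.95 and 5.21 CPM under peptide alone and 3.51, 3.12, 3.298 and 3.58 CPM with the agonist (log2 fold change -2.82, SE 0.697, and -0.62 without OVA replicates 1 and 3). Ddit4, an inhibitor of mTORC1, stood at 86.8, 11.4, 60.9 and 11.1 CPM under peptide alone and 7.43, 7.75, 9.45 and 8.23 CPM with the agonist (-2.38, SE 0.700, and -0.46 without those 2). Both had the pattern of Trib3, with OVA replicates 2 and 4 also above the TLR2 range. Nupr1, a stress-induced chromatin protein, stood at 15.5, 0.363, 7.38 and 0.0884 CPM under peptide alone and 0.167, 0.352, 0.285 and 0.358 CPM with the agonist, and Sesn2, a stress-induced inhibitor of mTORC1, at 53.2, 12.9, 48.8 and 13.7 CPM under peptide alone and 13.03, 10.8, 11.2 and 12.2 CPM with the agonist. Nupr1 went from -4.37 (SE 1.06) to 0.12 and Sesn2 from -1.45 (SE 0.41) to -0.18 when OVA replicates 1 and 3 were left out. Cdkn1a, the cell cycle inhibitor p21 and a p53 target, stood at 66.8, 22.9, 51.5 and 17.3 CPM under peptide alone and 18.8, 15.7, 14.9 and 19.2 CPM with the agonist (-1.21, SE 0.36, and -0.24 without those 2). Phlda3, another p53 target, did not follow the OVA split, at 9.09, 7.54, 7.05 and 7.87 CPM under peptide alone and 5.68, 2.82, 4.84 and 5.82 CPM with the agonist (-0.72, SE 0.27, and -0.696 without those 2), and was lower in every TLR2 library.

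**Figure D4:**
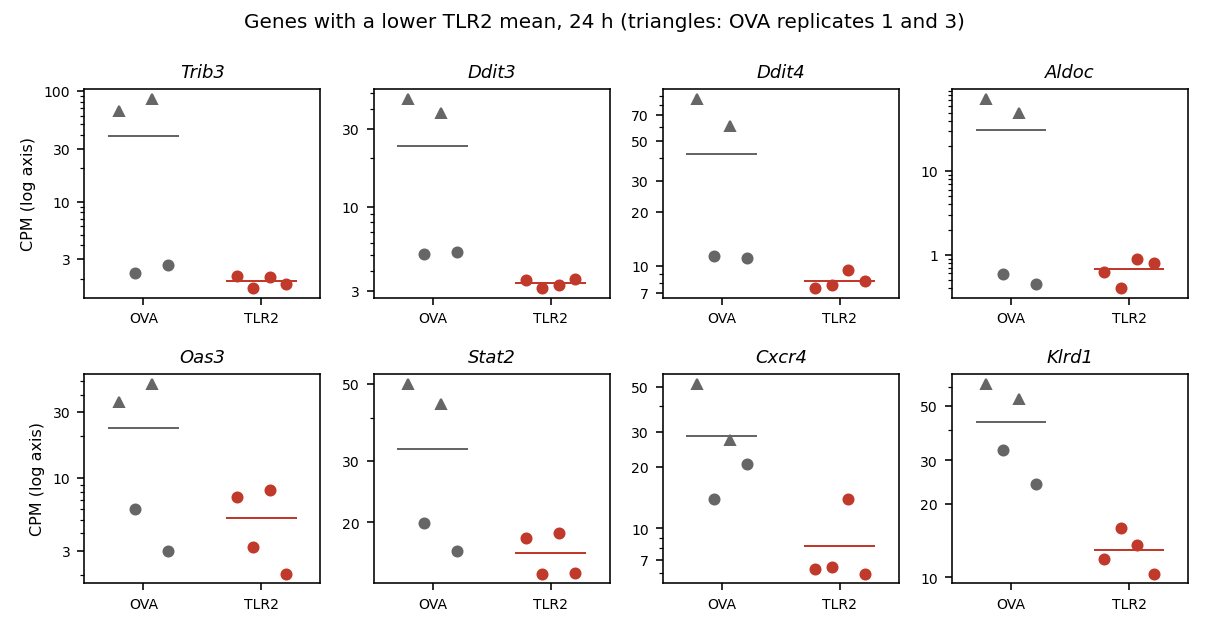
CPM on a log axis of 8 genes with a lower mean in the TLR2 group at 24 h, with a line at each group's mean and triangles for OVA replicates 1 and 3. For Trib3, Ddit3, Ddit4, Aldoc, Oas3 and Stat2 the triangles stand apart from the other 6 libraries. For Trib3, Ddit3, Ddit4, Klrd1 and Cxcr4 every OVA library lies above every TLR2 library. The gap of Cxcr4 is very narrow (13.95 against 13.93 CPM).

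Of the other named genes lower in every TLR2 library, most had the same shape. Bzrap1 stood at 13.4, 0.636, 12.6 and 0.707 CPM under peptide alone and 0.334, 0.220, 0.285 and 0.537 CPM with the agonist (log2 fold change -4.39, SE 1.07, and -1.03 without OVA replicates 1 and 3). Mgst2, a microsomal glutathione transferase, went from -3.595 to -0.68 without those 2, Myo1f, a myosin of blood cells, from -3.51 to -0.82, and Rdm1, which takes part in DNA repair, from -3.19 to -0.72. Ypel3 went from -2.98 to -0.73, Rab37, a small GTPase of secretion, from -2.57 to -0.35, and Sema4a, a semaphorin that costimulates T cells, from -2.53 to -0.25. Of these genes, the differences left without the 2 libraries were largest for Mirt1 and S100a6. The noncoding RNA Mirt1 stood at 19.2, 2.68, 12.9 and 3.80 CPM under peptide alone and 1.63, 0.572, 1.59 and 0.805 CPM with the agonist (-3.05, SE 0.74, and -1.45 without those 2). S100a6, a calcium-binding protein of memory and effector T cells, stood at 7.71, 2.32, 9.24 and 1.24 CPM under peptide alone and 0.668, 0.748, 0.977 and 0.626 CPM with the agonist (-2.76, SE 0.84, and -1.24 without those 2). In these 9 genes OVA replicates 1 and 3 were the 2 highest of the 8 libraries.

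Metabolic gene lists showed how much the 2 libraries weigh. Glycolysis and hypoxia genes had a median log2 fold change of -0.40, with 26 of 35 below 0, and of 0.33 without OVA replicates 1 and 3, with 3 of 35 below 0. No gene of that list was lower or higher in every TLR2 library. Aldoc, an aldolase of glycolysis, stood at 73.3, 0.591, 49.96 and 0.442 CPM under peptide alone and 0.626, 0.396, 0.896 and 0.805 CPM with the agonist, and its value of -5.53 (SE 1.498) became 0.33. Vegfa, the angiogenic factor and a hypoxia target, stood at 60.2, 6.498, 35.6 and 6.63 CPM under peptide alone and 8.56, 9.42, 8.39 and 9.396 CPM with the agonist (-1.61, SE 0.600, and 0.44 without those 2). P4ha2, a collagen prolyl hydroxylase, went from -3.496 to 1.46, and Mxi1, a MYC antagonist, from -2.03 to 0.43. In these 4 genes the TLR2 libraries lay with or above OVA replicates 2 and 4 and far below OVA replicates 1 and 3.

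Cholesterol synthesis genes depended less on them, with a median of 0.11, and 0.06 without the 2 libraries. Of 29 genes tested, 3 were higher and 0 lower in every TLR2 library, against 3.02% and 3.12% of all genes. Hmgcs1, an early enzyme of the pathway, stood at 179.9, 215, 167 and 213 CPM under peptide alone and 258, 299.8, 232 and 218 CPM with the agonist (log2 fold change 0.38, SE 0.17, and 0.23 without those 2), and Hsd17b7, a later one, at 22.8, 24.4, 24.5 and 29.2 CPM under peptide alone and 38.5, 45.5, 29.6 and 33.9 CPM with the agonist (0.55, SE 0.22). Both were higher in every TLR2 library by small margins. Insig1, the sterol sensor that holds back the pathway, stood at 92.1, 127, 96.8 and 107 CPM under peptide alone and 134, 164, 122 and 147 CPM with the agonist (0.42, SE 0.15, and 0.27 without those 2). Scd2, a fatty acid desaturase, stood at 766, 52.8, 668 and 40.3 CPM under peptide alone and 85.7, 110.5, 112 and 71.8 CPM with the agonist and followed the OVA split, from -2.005 (SE 0.82) to 1.02 without those 2. Oxidative phosphorylation genes had a median of 0.08, and -0.11 without the 2 libraries.

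Interferon-stimulated genes stood lower with the TLR2 agonist as a list, and less so without OVA replicates 1 and 3. Of 41 genes tested in the list of type I interferon genes, 38 had a value below 0 (against 50.9% of all genes). In every TLR2 library 3 were lower (Cmpk2, Ifih1 and Samd9l) and 0 higher, against 3.12% and 3.02%. DESeq2 called 5 lower, against 2.24%. OVA replicates 1 and 3 were the 2 highest in 19 of the 41, against 25.9%. The median log2 fold change was -0.74, and -0.36 without those 2 libraries, with 34 below 0. Many such genes carry an interferon-stimulated response element (ISRE), a short stretch through which interferon signals act, and 2 promoters with its letters are shown as examples. Stat2 is at chr10:128270248-128270497 (plus) and Oas3 at chr5:120777660-120777909 (minus), each the 250 bases before the start in RefSeq on GRCm38.p6, with its letters in capitals (GAAA, any 2 bases, GAAA, or in reverse complement TTTC, any 2 bases, TTTC).
Stat2: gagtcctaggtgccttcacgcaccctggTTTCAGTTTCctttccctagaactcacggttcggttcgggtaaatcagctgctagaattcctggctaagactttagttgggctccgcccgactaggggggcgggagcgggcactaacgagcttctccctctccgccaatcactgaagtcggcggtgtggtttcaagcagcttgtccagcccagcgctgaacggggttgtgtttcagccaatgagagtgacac
Oas3: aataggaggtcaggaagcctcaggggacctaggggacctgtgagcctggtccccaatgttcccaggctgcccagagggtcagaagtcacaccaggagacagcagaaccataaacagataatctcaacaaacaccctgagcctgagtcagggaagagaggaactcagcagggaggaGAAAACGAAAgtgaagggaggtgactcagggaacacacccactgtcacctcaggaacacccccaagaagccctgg
The letters stood at -222 in Stat2 and at -75 in Oas3. They occurred in 13 of 31 type I interferon promoters with an entry (41.9%) and in 13 of 325 promoters of the genes lower in every TLR2 library (4.00%). The shares were 318 of 9743 promoters of the genes tested (3.26%) and 936 of all 27025 (3.46%). The letters can overlap the NFAT core.

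Stat2, a signal transducer of the type I interferon receptor, stood at 50.2, 19.99, 43.9 and 16.5 CPM under peptide alone and 18.04, 14.3, 18.7 and 14.3 CPM with the agonist (log2 fold change -1.001, SE 0.28, and -0.17 without OVA replicates 1 and 3). Oas3, an antiviral sensor of double-stranded RNA, stood at 35.2, 5.95, 47.9 and 3.005 CPM under peptide alone and 7.27, 3.17, 8.27 and 2.06 CPM with the agonist, and its value of -2.13 (SE 0.62) became 0.21. TLR2 replicates 1 and 3 lay above replicates 2 and 4 in both genes, so the TLR2 group was not uniform here. Irf7, the factor that amplifies interferon, stood at 16.7, 9.31, 20.8 and 4.77 CPM under peptide alone and 6.14, 2.33, 8.51 and 1.61 CPM with the agonist (-1.46, SE 0.52, and -0.59 without those 2), with the same order within TLR2. Ddx58, which encodes the RNA sensor RIG-I, went from -1.48 (SE 0.42) to -0.38, and Epsti1 from -1.65 (SE 0.49) to -0.36. For every gene of this paragraph OVA replicate 4 lay inside the TLR2 range. OVA replicate 2 lay above that range in all of them but Oas3. What was left below 0 without OVA replicates 1 and 3 thus rests mainly on OVA replicate 2 in these genes.

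Interferon-gamma target genes had a smaller median of -0.24, -0.17 without the 2 libraries and -0.36 without TLR2 replicate 2, with 23 of 33 below 0, while Ifng itself stood higher. Of the 33, 1 was lower in every TLR2 library, against 3.12% of all genes. That gene was Gbp8, a guanylate-binding protein, at 30.3, 11.6, 22.7 and 10.5 CPM under peptide alone and 7.18, 6.87, 9.49 and 4.47 CPM with the agonist (log2 fold change -1.42, SE 0.42, and -0.66 without those 2). Tapbp, which loads peptides onto MHC class I, stood at 141, 137, 147 and 95.4 CPM under peptide alone and 105, 72.0, 108 and 76.2 CPM with the agonist (-0.53, SE 0.18, and -0.37 without those 2). Tap2, the peptide transporter, went from -1.07 (SE 0.36) to -0.15, and Nlrc5, the activator of MHC class I genes, from -0.65 (SE 0.203) to -0.097. Ifngr1, a chain of the interferon-gamma receptor, stood at 220.1, 36.9, 198 and 35.9 CPM under peptide alone and 30.5, 37.2, 37.7 and 37.1 CPM with the agonist, with OVA replicates 1 and 3 apart from the other 6 libraries.

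Genes of DNA replication and ribosome building stood slightly higher as lists. Of 37 genes of G1/S and replication, 35 were above 0 (against 49.1% of all genes), with a median of 0.34, and 0.07 without OVA replicates 1 and 3, which were the 2 lowest libraries in 31 of the 37. Of these genes, 3 were higher in every TLR2 library (Cdc6, Pola1 and Uhrf1), against 3.02% of all genes. Pola1, the catalytic chain of DNA polymerase alpha, stood at 79.5, 137, 92.4 and 126 CPM under peptide alone and 138, 220.4, 146 and 139 CPM with the agonist (log2 fold change 0.57, SE 0.34). Ccne2, a cyclin of the G1/S transition, stood at 18.1, 41.5, 22.1 and 24.4 CPM under peptide alone and 47.8, 95.7, 42.96 and 41.1 CPM with the agonist (1.100, SE 0.498), and Rrm2, a subunit of ribonucleotide reductase, at 128, 309, 166 and 156 CPM under peptide alone and 302, 376, 279.6 and 239.9 CPM with the agonist (0.66, SE 0.38). TLR2 replicate 2 was the highest library in all 3, and without it their log2 fold changes were 0.38, 0.73 and 0.53. Without OVA replicates 1 and 3 they were 0.28, 0.78 and 0.36. All 33 ribosome biogenesis genes tested were above 0, with a median of 0.34, but 30 of them had OVA replicates 1 and 3 as the 2 lowest and the median was 0.00 without those. Npm1, the nucleolar protein nucleophosmin, stood at 3963, 8202, 3956 and 5597 CPM under peptide alone and 6513, 8700, 6522 and 7035 CPM with the agonist (0.41, SE 0.26, and 0.06 without those 2), with overlap.

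Mitosis genes had a median of -0.11, with 14 of 34 above 0, and 0.27 without OVA replicates 1 and 3, with 33 above 0. Ccnb2, a mitotic cyclin, stood at 29.3, 3.04, 27.8 and 1.86 CPM under peptide alone and 3.09, 4.31, 3.01 and 2.51 CPM with the agonist (log2 fold change -2.26, SE 0.85, and 0.37 without those 2). Plk1, a mitotic kinase, went from -1.06 (SE 0.57) to 0.09. Cenpa, the histone of centromeres, was the 1 gene of this list lower in every TLR2 library, at 126, 16.8, 55.5 and 16.0 CPM under peptide alone and 15.04, 13.3, 14.98 and 11.4 CPM with the agonist (-1.97, SE 0.799, and -0.27 without those 2) with a gap from 15.0 to 16.0 CPM between the groups.

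Genes of T cell identity stood lower in part. Of 23 CD8 T cell marker genes tested, 6 were lower (Cd3d, Cd3e, Cd3g, Lck, Skap1 and Trbc1) and 0 higher in every TLR2 library, against 3.12% and 3.02% of all genes. The list's median was -0.24, -0.26 without OVA replicates 1 and 3 and -0.16 without TLR2 replicate 2. Cd3e, a signalling chain of the TCR complex, was measured at 195, 171, 170.3 and 174 CPM under peptide alone and at 148, 107, 149 and 138 CPM with the agonist. Cd3g, another chain, was measured at 403, 252, 358 and 191 CPM against 164, 135, 168 and 145 CPM. TLR2 replicate 2 was the lowest library in both. Cd8a, which defines the cell type named in the labels, overlapped between the groups at 622 to 904 CPM in OVA and 721 to 796 CPM in TLR2. The summed level of the 23 markers was 7241, 7303, 7133 and 6967 CPM in OVA and 6480, 5598, 6515 and 6463 CPM in TLR2, a difference with p = 0.0286 in a two-sided exact permutation test, the smallest that 4 against 4 libraries allow, and 0.114 adjusted over 12 marker lists. In bulk RNA, fewer cells of a type and less RNA per cell cannot be told apart.

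Killer cell receptors and proteases of cytotoxic cells included genes lower in every TLR2 library. Of 22 cytotoxic effector genes, 3 were lower (Klrd1, Ctsw and Stxbp2) and 1 higher (Klrg1), against 3.12% and 3.02% of all genes tested. The list's median log2 fold change was -0.08, 0.00 without OVA replicates 1 and 3 and -0.205 without TLR2 replicate 2. Klrd1, the CD94 chain of a receptor for MHC class I, stood at 61.6, 32.9, 53.5 and 24.1 CPM under peptide alone and 11.9, 15.98, 13.5 and 10.4 CPM with the agonist (log2 fold change -1.73, SE 0.57, and -1.15 without those 2). Ctsw, a cathepsin of cytotoxic lymphocytes, stood at 58.1, 18.04, 47.4 and 19.4 CPM under peptide alone and 14.8, 7.53, 14.7 and 11.1 CPM with the agonist (-1.57, SE 0.503, and -0.64 without those 2). For Klrd1 the gap between the groups, from 16.0 to 24.1 CPM, was there among OVA replicates 2 and 4 as well. Klrk1, the activating receptor NKG2D, stood at 162, 21.9, 117 and 14.7 CPM under peptide alone and 12.9, 18.8, 14.9 and 11.9 CPM with the agonist and followed the OVA split, from -2.43 (SE 0.74) to -0.33. Serpinb9, the inhibitor that protects killer cells from granzyme B, stood at 275, 440.2, 254 and 297 CPM under peptide alone and 458, 1075, 423 and 570.3 CPM with the agonist (0.997, SE 0.37, 0.77 without those 2 and 0.61 without TLR2 replicate 2), with only OVA replicate 2 inside the TLR2 range. Markers of NK cells, a list that holds Klrk1, summed to 196, 80.6, 223 and 47.9 CPM in OVA and 47.9, 62.0, 60.3 and 37.6 CPM in TLR2 (exact permutation p = 0.0857, adjusted 0.206), and their part in the values of Klrd1 and Ctsw was not tested.

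Inhibitory receptors had a median of -0.39, and -0.22 without the 2 libraries, with 13 of 19 below 0. Of the 19, 2 were lower in every TLR2 library (Cd96 and Cd101), against 3.12% of all genes. Pdcd1, which encodes PD-1, stood at 98.9, 106, 59.1 and 108 CPM under peptide alone and 93.1, 36.8, 80.2 and 56.1 CPM with the agonist (log2 fold change -0.48, SE 0.41; edgeR adjusted p 0.545, and 0.386 to 1 over the alternatives). The groups overlapped, since TLR2 replicates 1 and 3 lay within the OVA range and OVA replicate 3 within the TLR2 range. Without OVA replicates 1 and 3 the value was -0.69, and without TLR2 replicate 2, the lowest library, it was -0.27. Cd274, which encodes its ligand PD-L1, stood at 79.2, 78.9, 66.0 and 96.2 CPM under peptide alone and 82.6, 82.8, 79.8 and 65.2 CPM with the agonist (-0.04, SE 0.21; edgeR adjusted p 0.923, and 0.733 to 1 over the alternatives). Lag3 and Tigit, other inhibitory receptors, followed the OVA split: Lag3 went from -0.59 (SE 0.31) to 0.04 and Tigit from -0.79 (SE 0.33) to 0.03. Cd101, a marker of late exhaustion, stood at 2.48, 0.591, 1.11 and 1.502 CPM under peptide alone and 0.459, 0.220, 0.529 and 0.0895 CPM with the agonist (-2.03, SE 0.86, and -1.54 without those 2), which is 1 to 63 counts per library.

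Of 19 costimulatory receptor genes tested, 8 had OVA replicates 1 and 3 as the 2 highest libraries and 5 had them as the 2 lowest. The 3 described here are of the TNF receptor family and are among the 8. Tnfrsf9, which encodes 4-1BB, stood at 1049, 420.5, 1115 and 396 CPM under peptide alone and 398, 391, 408 and 388 CPM with the agonist (log2 fold change -0.91, SE 0.38, and -0.05 without OVA replicates 1 and 3). Tnfrsf18, which encodes GITR, went from -1.04 (SE 0.45) to 0.08. Tnfrsf8, which encodes CD30, stood at 45.5, 1.09, 365 and 0.619 CPM under peptide alone and 2.09, 3.92, 2.36 and 2.15 CPM with the agonist, where OVA replicate 3 alone was far above the rest, and went from -5.28 (SE 1.73) to 1.55. Of the 19 genes, 1 was higher and 0 were lower in every TLR2 library, against 3.02% and 3.12% of all genes tested. The list's median was -0.25, and 0.19 without the 2 libraries.

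Homing receptors had a median of -0.33, and 0.01 without the 2 libraries. Of 24 tested, 1 was higher (Itgb1) and 2 lower (Cxcr4 and S1pr4) in every TLR2 library, against 3.02% and 3.12% of all genes. Cxcr4, the receptor for CXCL12 that guides lymphocytes to marrow and lymphoid tissue, stood at 51.7, 13.9, 27.4 and 20.9 CPM under peptide alone and 6.31, 6.47, 13.9 and 5.996 CPM with the agonist (log2 fold change -1.79, SE 0.66, and -1.09 without those 2). TLR2 replicate 3 lay just under OVA replicate 2, and the other 3 TLR2 libraries were lower. Itgb1, the integrin beta 1 chain, stood at 226, 316, 187 and 251 CPM under peptide alone and 322, 496, 318 and 342 CPM with the agonist (0.59, SE 0.22, and 0.37 without those 2). Itgb2, the chain of LFA-1, stood at 294, 130.0, 247 and 148 CPM under peptide alone and 138, 88.02, 132 and 104 CPM with the agonist (-0.82, SE 0.300, and -0.28 without those 2). Itgb7, the chain of the gut-homing integrin, stood at 157, 13.3, 200.4 and 13.8 CPM under peptide alone and 15.8, 10.1, 16.1 and 12.4 CPM with the agonist, and its value of -2.82 (SE 0.84) became 0.00. Among naive and memory genes (median -0.23, and 0.02 without the 2 libraries), Ly6c2 stood at 6.14, 18.4, 7.38 and 6.36 CPM under peptide alone and 6.97, 4.93, 5.497 and 2.69 CPM with the agonist (-0.92, SE 0.35, -1.29 without those 2 and -0.45 without OVA replicate 2, the highest library), and Pik3ip1, a brake on PI3K, went from -2.19 (SE 0.85) to -0.25.

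**Figure D5:**
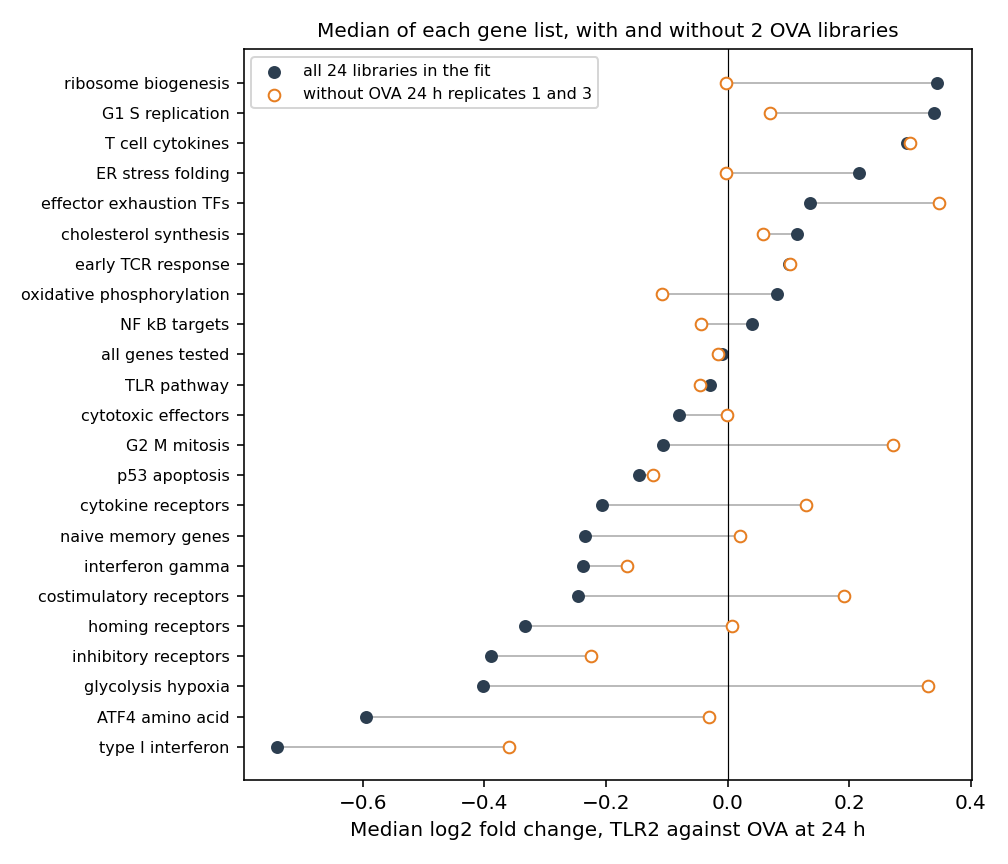
Median log2 fold change of TLR2 against OVA at 24 h over the tested genes of each pathway list and over all genes tested, from all 24 libraries (filled) and without OVA 24 h replicates 1 and 3 (open). The type I interferon median is lowest in both (-0.74 and -0.36), the T cell cytokine median is 0.30 in both, and the glycolysis and hypoxia median goes from -0.40 to 0.33.

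Markers of other cell types were measured in all 8 libraries, with 1 of 19 macrophage, 1 of 18 dendritic cell and 2 of 12 stromal genes at 0 in every one. None of the 12 lists passed its test after adjustment (exact permutation tests, smallest adjusted p 0.114). Even lists whose groups did not overlap at all, with the smallest p that 4 against 4 libraries allow (0.0286), came to 0.114. These tests therefore cannot show that the lists were alike in the groups. Neutrophil markers summed to 153 CPM in OVA replicate 2 and to 3.15 to 27.8 CPM in the other OVA libraries, against 4.76 to 24.7 CPM in TLR2. Macrophage and monocyte markers summed to 142 CPM in OVA replicate 2 and 60.3 to 70.2 CPM in the other OVA libraries, against 61.6 to 62.9 CPM in TLR2. H2-Ab1, an MHC class II chain of antigen-presenting cells, was measured at 42.3, 59.4, 40.9 and 38.9 CPM in OVA and 18.5, 14.2, 32.0 and 16.6 CPM in TLR2, without overlap. It belongs to the dendritic cell list, where 1 of 15 genes tested was lower in every TLR2 library, against 3.12% of all genes. Of those 15, 10 had a value below 0 and 5 above. The dendritic cell markers summed to 1106 to 1889 CPM in OVA and 1114 to 1600 CPM in TLR2, with overlap. Cd4, which marks the other main T cell class, lay at 0.949 to 2.00 CPM in OVA and 0.537 to 1.38 CPM in TLR2. The small lists of platelet and of stromal markers were lower in every TLR2 library, at 6.35 to 7.04 against 7.34 to 45.4 CPM and at 10.7 to 12.5 against 15.1 to 24.4 CPM. Each had the same exact permutation p as the CD8 T cell list, 0.0286 (adjusted 0.114). The part of these cells in the differences above was not tested.

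The same agonist comparison at 72 h used other libraries. Of these, TLR2 replicates 1, 3 and 4 and OVA replicate 4 lay between the times on principal component 1, and the part of that in the values below was not tested. The difference between times, the TLR2 effect at 72 h minus that at 24 h, was past the threshold for 0 genes in edgeR, with 919 at an unadjusted p under 0.05, and for 2 genes in DESeq2, or 0 without OVA 24 h replicates 1 and 3. Il21 ranged from 0 to 6.06 CPM in OVA and from 2.66 to 56.9 CPM in TLR2 at 72 h, with a difference between times of -0.09 (SE 1.48). Ifng ranged from 8.56 to 47.5 CPM in OVA and from 56.6 to 248 CPM in TLR2 at 72 h, without overlap, with a difference between times of 0.43 (SE 0.79). Il1r1 and Ahr also stood higher in every TLR2 library at 72 h, at 0.490 to 2.01 against 0 to 0.210 CPM for Il1r1 and at 6.81 to 15.5 against 1.77 to 5.10 CPM for Ahr. Trib3, in contrast, lay at 56.6 to 170 CPM in OVA and 46.4 to 109 CPM in TLR2 at 72 h, so that OVA 24 h replicates 1 and 3, at 66.9 and 85.8 CPM, fell within the 72 h ranges.

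The TLR7 agonist group at 24 h shares the OVA libraries, so its values are set beside these without a test. Of its 4 libraries, replicates 3 and 4 lay between the times on principal component 1. Il21 ranged from 55.9 to 193 CPM with the TLR7 agonist and from 14.5 to 84.4 CPM with the TLR2 agonist. Ifng ranged from 203 to 603 CPM and from 287 to 626 CPM, and Il2 from 98.3 to 224 CPM and from 46.5 to 96.3 CPM. Stat2 ranged from 40.8 to 69.5 CPM with the TLR7 agonist and from 14.3 to 18.7 CPM with the TLR2 agonist, and Oas3 from 27.5 to 65.4 CPM and from 2.06 to 8.27 CPM. In these interferon-stimulated genes the 2 agonist groups did not overlap, whereas in Ifng they did.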

How the data were processed

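Libraries were made from poly-A RNA with a stranded kit, per the labels' protocols. Each library has its own file, in which the authors deposited unscaled expected counts for every gene; the unit was read from the values, of which 28.7% of those above 0 are not whole. STAR, RSEM and edgeR on GRCm38 are named per the submitters' processing notes. Versions, roles, annotation and strand setting were not given in the sources used here, and overlapping and antisense genes, and families with near-identical copies such as the Gbp and H2 genes, are uncertain.

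Expected counts were rounded. Of 48526 genes, 14560 passed edgeR's filterByExpr (minimum count 10, minimum total 15). CPM used TMM-scaled library sizes, and log2 CPM a prior count of 2. edgeR 4.0.16 (R 4.3.3) fitted all 24 libraries with a term for each group (18 residual degrees of freedom), and its quasi-likelihood test was adjusted over all genes tested by Benjamini-Hochberg at 0.05. Column totals of the 24 files ran from 10.5 to 27.1 M counts. DESeq2 1.42.0, other scalings and filters, a replicate block, fits on 8 and 12 libraries and fits without single libraries, OVA replicates 1 and 3, the 8 libraries between the times or the 5 under 15 M counts were alternatives. Only the main edgeR fit was run on simulated counts. These had less spread between replicates than the data and no split of the OVA group, so that run does not bear on the split.

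Gene positions came from GENCODE M21 on GRCm38. Of 14548 symbols tested, 9743 had a RefSeq promoter entry. The 34 gene lists held 816 symbols, of which 753 were tested. Lists of other cell types were compared by summed CPM in two-sided exact permutation tests over 70 arrangements. Named genes were Pdcd1, Cd274, Tlr1, Tlr2, Tlr6, Tlr7 and Myd88, up to 12 genes a direction with no overlap between groups, a mean of at least 5 CPM and the largest log2 fold change, up to 4 members of each pathway list with the smallest p, and genes past the threshold, of which there were none. Predicted genes, pseudogenes and receptor segments were left out. Only some of these are in the text, where further list members and markers were named after their values were seen. Members and lists were chosen with earlier results of these data known. Counts of a gene at the floor of 3 counts per library cover counting error only.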

Additional observations from a re-analysis of the deposited data

Results flagged for a closer look

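In 19 of 208 groups of 4 values examined (9.13%), 1 library lay far from the other 3, by Dixon's criterion on the gap to the nearest value; chance flags about 1 in 20 groups. Replicate 4 was the shallow library of both groups, at 11.1 M counts in OVA against 23.1 to 24.5 M in the others and at 11.6 M in TLR2 against 24.8 to 25.5 M.

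OVA replicate 2 stood apart in markers of other cell types. Macrophage and monocyte markers summed to 142 CPM there against 60.3 to 70.2 CPM, neutrophil markers to 153 CPM against 3.15 to 27.8 CPM, and erythroid markers to 26.1 CPM against 6.27 to 8.57 CPM. Ly6c2, a surface protein of memory T cells and monocytes, stood at 18.4 CPM in that library against 6.14 to 7.38 CPM. In OVA replicate 3, Tnfrsf8 reached 365 CPM against 0.619 to 45.5 CPM, and in OVA replicate 1, Nfkbiz reached 51.2 CPM against 29.8 to 33.2 CPM.

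TLR2 replicate 2 stood apart in 7 of the 12 values flagged in that group. Pola1 was at 220.4 CPM against 138 to 146 CPM, Ccne2 at 95.7 CPM against 41.1 to 47.8 CPM, Itgb1 at 496 CPM against 318 to 342 CPM and Ptpn4 at 116 CPM against 37.8 to 50.5 CPM. Tnfrsf8 was at 3.92 CPM against 2.09 to 2.36 CPM. Erythroid markers summed to 21.3 CPM against 11.1 to 12.7 CPM, and CD8 T cell markers to 5598 CPM against 6463 to 6515 CPM. TLR2 replicate 3 held Cxcr4 at 13.9 CPM against 5.996 to 6.47 CPM, P4ha2 at 2.48 CPM against 1.41 to 1.46 CPM and Tigit at 46.2 CPM against 50.2 to 50.9 CPM. Ifngr1 stood at 30.5 CPM in TLR2 replicate 1 against 37.1 to 37.7 CPM.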

How the results depend on the processing

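The count of edgeR calls stayed at 0 in every setting run except DESeq2 (345), the fit without OVA 24 h replicate 2 (546; 0 to 546 over the fits that left out 1 library) and DESeq2 without OVA 24 h replicates 1 and 3 (1), the last chosen after seeing the data. The causes of these differences were not tested. The replicate number as a block gave 0 calls. Same-numbered libraries correlated at 0.05, 0.15, 0.13 and 0.15 in their deviations, not all over the threshold of 0.1. The numbers came from the sample titles and not from the file names, whose numbers differ, and were not taken as pairs. OVA replicates 2, 3 and 4 each correlated best with the TLR2 library of the same number, and OVA replicate 1 with TLR2 replicate 3 (0.10). Whether same-numbered libraries share a source was not tested. The difference between times gave 0 calls except with DESeq2 (2), with 0 in every fit that left out 1 library. Genes higher in every TLR2 library numbered 286 with the stricter filter, 456 to 1709 when 1 library was left out, 1088 without OVA 24 h replicates 1 and 3, 1132 without the 8 libraries between the times and 1215 without the shallow libraries. Genes lower in every TLR2 library numbered 573 to 1704 when 1 library was left out (1704 without OVA 24 h replicate 2, 1250 without OVA 24 h replicate 4), and 1123, 1180 and 1450 in the last 3 settings; fewer libraries leave fewer values to overlap. Of the 91 genes of the text refitted under each setting, 19 changed sign in some setting, all with an adjusted p of at least 0.685 there. Log2 fold changes above 0 in the fit without OVA 24 h replicates 1 and 3, the fit without the 8 libraries between the times and DESeq2 without OVA 24 h replicates 1 and 3 were 0.0018, 0.0069 and 0.001 for Itgb7, 0.33, 0.33 and 0.39 for Aldoc, 1.46, 1.46 and 1.48 for P4ha2, 0.44, 0.44 and 0.44 for Vegfa, 0.43, 0.43 and 0.44 for Mxi1, 1.02, 1.03 and 1.02 for Scd2, 1.43, 1.42 and 1.53 for Batf3, 1.55, 1.55 and 1.61 for Tnfrsf8, 0.042, 0.0448 and 0.0421 for Lag3, 0.12, 0.11 and 0.21 for Nupr1, 0.0913, 0.0925 and 0.0946 for Plk1, 0.37, 0.38 and 0.39 for Ccnb2, 0.21, 0.22 and 0.21 for Oas3, 0.0826, 0.0852 and 0.0821 for Tnfrsf18, and 0.0267, 0.0301 and 0.029 for Tigit. Without the shallow libraries Cd274 was at 0.13, Tlr2 at -0.0081 and Tlr1 at 0.0287. Fits that left out 1 library ran from -0.15 to 0.0584 for Cd274 (highest without OVA 24 h replicate 4), -0.0139 to 0.296 for Tlr2 (lowest without OVA 24 h replicate 4), -0.305 to 0.13 for Tlr7 and -0.13 to 0.0576 for Tlr1 (both highest without OVA 24 h replicate 2). Named genes crossed the threshold in 36 cases with DESeq2, 29 without OVA 24 h replicate 2 and 1 (Il21) with DESeq2 without OVA 24 h replicates 1 and 3. At these depths a gene with fewer than 3 counts in a library cannot be told from 0, which applies to at least 1 library for Il21, Il17f, Timp1, Itgb8, Nupr1 and Cd101.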

Other observations

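Some cytokine and receptor genes outside the comparisons above did not separate the groups, and their values show how far the OVA group's own spread reached. Il12rb2, a receptor chain for IL-12, was measured at 622, 36.7, 568 and 34.6 CPM under peptide alone and at 97.2, 231, 74.5 and 112 CPM with the agonist, so every TLR2 library lay above OVA replicates 2 and 4 and below OVA replicates 1 and 3. Gzmb, the main granzyme of killer T cells, was measured at 1587, 799.5, 1913 and 324 CPM against 1142, 2452, 1373 and 1723 CPM. Il10, an inhibitory cytokine, reached 43.5 CPM in OVA replicate 3 and lay between 0.265 and 2.99 CPM in the other 7 libraries. Tnf lay at 9.19 to 16.5 CPM in OVA and 15.2 to 26.5 CPM in TLR2, with overlap. Ccl3, a chemokine of activated CD8 T cells, lay at 75.6 to 286 CPM in OVA and at 220 to 415 CPM in TLR2, with OVA replicate 2 inside the TLR2 range. The genes of this paragraph were chosen after their values were seen.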
